A study of Bos taurus with 12 samples.

Results

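Between day 7 and day 14 of the oestrous cycle, gene levels in the endometrium of heifers with later calf delivery changed widely, with 1633 of 6781 (24.1%) at an adjusted p under 0.05, 669 of them upward and 964 downward. Large rises included those of a zinc importer (SLC39A2), a beta-defensin (EBD), PLET1, the chemokine CXCL8 and SERPINA14, a secreted protein of the glands. Large falls included those of endothelin-3 (EDN3), BSP3, SPC24, the proline-degrading enzyme PRODH, PDZK1, cyclin B1 (CCNB1) and lipoprotein lipase (LPL). Of 36 measured interferon-stimulated genes 17 rose (47.2%, against 9.87% of all genes). Of 74 genes of the respiratory chain and ATP synthase 24 fell (32.4%, against 14.2%). With 1 array left out these counts went as low as 5 and 3, and with the 3′ to 5′ score described below in the fit they were 1 and 0. The comparison is of 3 arrays titled CDd14 with 3 arrays titled CDd7, out of 12 arrays in the series.

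Each array held RNA from a pool of endometrial biopsies of Simmental heifers, taken in the cycle before an embryo was transferred. In the following cycle an embryo, itself biopsied, was placed in each heifer on day 7. CDd7 and CDd14 stand for biopsies of day 7 and day 14 from heifers whose pregnancy ended in calf delivery (the CD group). NPd7 and NPd14 stand for the same days in heifers that came back to heat on day 21 and were counted as not pregnant (the NP group). The labels name no drug treatment and no altered allele, and every heifer of both groups received an embryo. There were 3 arrays in each of these 4 groups. The labels give neither the number of heifers in a pool nor whether both days' pools came from the same animals, so p-values measure the spread between pools. The members were found by dropping the chip's control probe sets, keeping 13449 of 24016 probe sets with a log2 level above 4 on at least 3 of the 12 arrays, and representing each gene symbol by its probe set of highest mean level across the series, which left 6781 genes. RefSeq sequences of these genes are not used here.

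Day 7 lies in the early luteal phase, when the corpus luteum has begun to secrete progesterone. Day 14 lies later in that phase, after the uterus has been exposed to progesterone for longer. Under progesterone the uterine glands turn from growth to secretion and release histotroph, a mix of proteins, sugars, amino acids and ions that would feed an elongating embryo. In cattle the embryo signals its presence at about this stage with interferon tau, which induces interferon-stimulated genes in the endometrium. In the cycle sampled here no embryo was placed.

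The levels are log2 values after GCRMA, the authors' background correction and normalisation, and array medians lay between 4.89 and 5.06. Arrays of one group correlated across genes at 0.975 to 0.978 within CDd7 and at 0.961 to 0.981 within CDd14, against 0.902 to 0.946 between those groups. Markers of epithelium were bright, with the epithelial surface protein EPCAM at 15.26 to 15.5 over the CD arrays. Markers of endothelium were mostly not measured, since 12 of the 13 on the chip were under the filter. The 3′ to 5′ signal difference of the control transcripts (GAPDH, cyclophilin and EF1A), a sign of RNA length, was 1.79, 1.42 and 1.73 log2 units on the CDd7 arrays and 2.05, 1.84 and 2.0 on the CDd14 arrays. The same difference in the transcripts added to every sample was 4.74 ± 0.07 on the CDd7 and 5.13 ± 0.12 on the CDd14 arrays (mean ± SD, n = 3 each). Both scores were higher on every CDd14 array than on every CDd7 array, and each gave p = 0.1 in a two-sided exact permutation test, the smallest p that 3 against 3 arrays allow.

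Over the 13449 probe sets, 3231 (24.0%) passed the threshold in the CD comparison, 1558 upward (11.6%) and 1673 downward (12.4%), by limma with Benjamini-Hochberg adjustment. Of the 6781 genes, 9.87% rose and 14.2% fell. The median fold was 1.86 among the genes that rose and 1.95 among those that fell. At least 4-fold rises were seen in 73 genes and at least 4-fold falls in 153, and the 16-fold mark was passed by 11 genes upward and 29 downward. The 3 CDd14 and 3 CDd7 values did not overlap in 1601 of the 1633 genes, while 3042 (44.9%) of all genes had no overlap. Genes named below for the size of their change were required to have no overlap, so it is no further support for them. When the 3′ to 5′ score entered the fit as a covariate, 174 probe sets passed, 52 upward and 122 downward, and 68 genes. The median difference of the 1633 genes was then 0.79 log2 units in the direction first called, against 0.93, and its median standard error 0.27 against 0.22. The score and the day separate the CD arrays the same way. The added transcripts, which do not come from the tissue, differed between the days by 0.39 log2 units and the control transcripts by 0.32. How far the score reflects the length of tissue RNA was not tested. The part of what it measures in the day difference was not tested. Of 185 named genes that passed, 93 kept their call with any 1 array left out. Under the 21 alternative settings, the score included, 22 kept it wherever they were measured. CLDN5 and SLC52A3 among the 22 were not measured under the stricter filter of log2 above 6. Those 22 were CXCL8, COL21A1, FGFBP1, FOS, GADD45A, SLC52A3 and TRIM25 upward, and CLDN5, DAPL1, DGKA, GJB5, MAL, PRKCQ, PRODH, RABGEF1, SEPTIN4, SLC39A8, SUSD2, TEX30, TFDP2, THBS1 and YEATS2 downward. The count of probe sets was 1320 without CDd7 pool 2, 1673 without CDd14 pool 3 and 2114 without CDd14 pool 2.

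**Figure D1:**
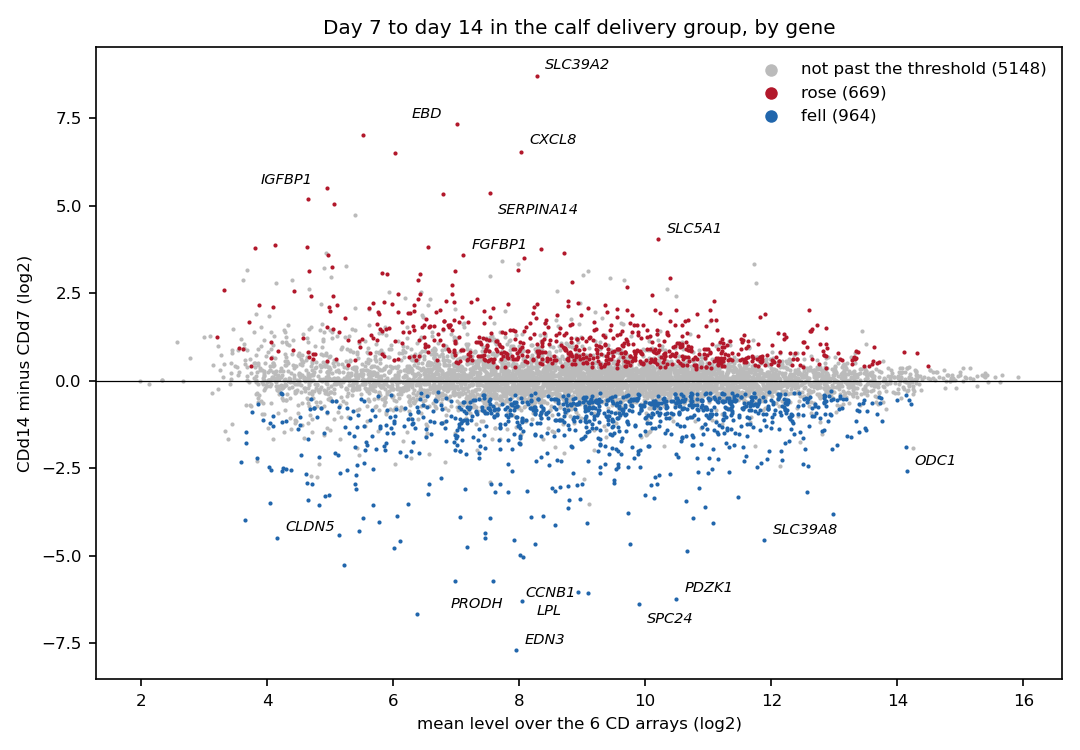
Difference between day 14 and day 7 in the calf delivery group (CDd14 minus CDd7, log2, y axis) against the mean level over the 6 CD arrays (log2, x axis), 1 point per gene. Red points are the 669 genes that rose, blue points the 964 that fell and grey points the 5148 that did not pass the threshold; more blue than red points lie beyond 4-fold (153 against 73).

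The steepest rise was that of SLC39A2, a plasma membrane importer of zinc. It read 4.64, 3.08 and 4.05 on the CDd7 arrays of pools 1 to 3 and 13.2, 12.21 and 12.49 on the CDd14 arrays, so that day 7 sat at the filter level and day 14 among the bright genes of the chip. Against the filter level of 4, since a level at or under it is not taken as a measured amount, the rise was at least 397-fold (limma adjusted p = 0.00852). EBD, an antimicrobial peptide of epithelia, read 3.07, 4.08 and 2.92 at day 7 and 12.34, 7.2 and 12.51 at day 14. CDd14 pool 2 was far under the other CDd14 pools for this gene, yet above every CDd7 pool. EBD rose at least 103-fold by the same measure (limma adjusted p = 0.00388). CXCL8, the chemokine that attracts neutrophils, read 4.1, 4.14 and 6.07 at day 7 and 9.39, 13.19 and 11.28 at day 14, and here CDd14 pool 2 was the highest. It rose 91.5-fold (log2 6.52 ± 1.29, limma adjusted p = 0.00826). Levels in these bulk samples do not tell whether a gene's RNA per cell changed or the number of cells that make it.

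Secreted proteins and nutrient carriers were among the other large rises. SERPINA14, the uterine milk protein of glandular secretion, read 5.83, 3.87 and 4.83 and then 11.39, 8.11 and 11.15. Pools 1 and 3 of day 14 were close together and pool 2 lower, and the groups did not overlap. It rose 41.5-fold (log2 5.37 ± 1.33, limma adjusted p = 0.0187), and a further probe set of the gene rose 97.4-fold (log2 6.61, limma adjusted p = 0.0206). SLC5A1, the sodium-driven glucose carrier, read 7.54, 7.86 and 9.14 and then 12.98, 11.26 and 12.45, a rise of 16.6-fold (log2 4.05 ± 1.03, limma adjusted p = 0.0204). FGFBP1, which releases fibroblast growth factors from the matrix, read 5.18, 5.0 and 5.78 at day 7 and 8.74, 9.33 and 8.63 at day 14. The values of a day were close together, and it rose 12-fold (log2 3.58 ± 0.28, limma adjusted p = 0.000894). COL21A1, a minor collagen, read 5.71, 3.75 and 4.51 and then 8.51, 8.4 and 8.48, with the day 14 values nearly equal, and rose 14-fold (log2 3.81 ± 0.6, limma adjusted p = 0.00389). TM4SF1, a membrane protein of the tetraspanin-like family, rose 13.4-fold (log2 3.75 ± 0.57, limma adjusted p = 0.00356), SVIL, an actin-binding membrane linker, 8.92-fold (log2 3.16 ± 0.47, limma adjusted p = 0.00344), and NIBAN1, a stress-induced cytoplasmic protein, 12.6-fold (log2 3.66 ± 0.75, limma adjusted p = 0.00913). UNC45B, a chaperone of myosin, read 3.06, 5.21 and 4.1 and then 9.82, 9.36 and 9.22 and rose 40.5-fold (log2 5.34 ± 1.68, limma adjusted p = 0.0437). The call was lost for SERPINA14 without CDd7 pool 2 or CDd14 pool 1 or 3 (limma adjusted p 0.0578 to 0.075), for SLC5A1 without CDd7 pool 1 or 2 or CDd14 pool 1 or 3 (limma adjusted p 0.0608 to 0.0738) and for UNC45B without CDd7 pool 1, 2 or 3, CDd14 pool 1, 2 or 3 or NPd7 pool 1, 2 or 3 (limma adjusted p 0.0534 to 0.115).

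**Figure D2:**
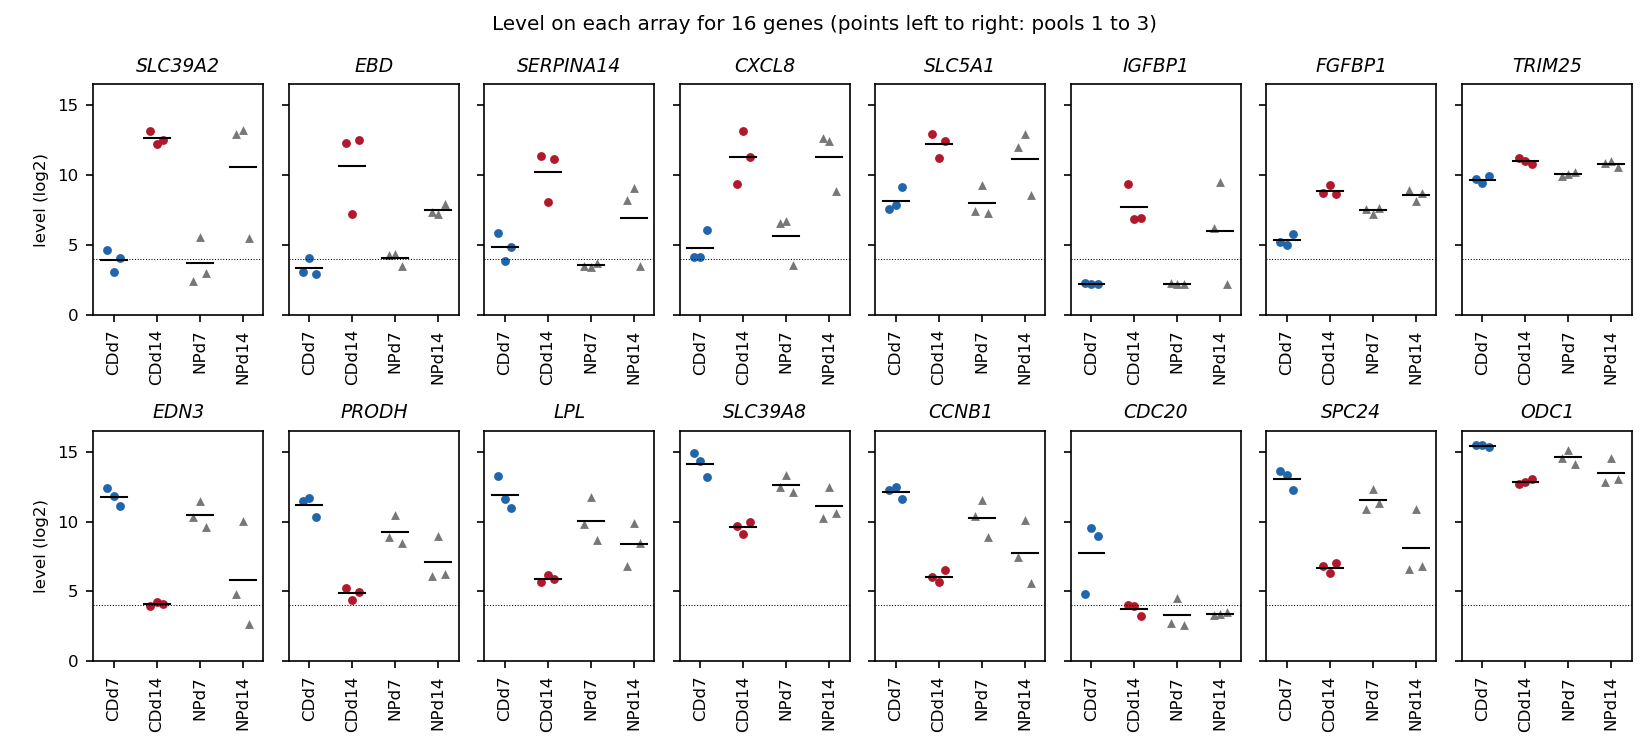
Log2 level (y axis) of 16 genes on all 12 arrays, grouped as CDd7 (blue), CDd14 (red), NPd7 and NPd14 (grey triangles), with pools 1 to 3 from left to right in each group. Black bars are group means and the dotted line is the filter level of 4. In each panel the CDd7 and CDd14 points do not overlap, which was required of genes named for the size of their change.

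Some genes rose from at or under the filter level, where the day 7 value is not a measured amount, and their rise is given against the level of 4 itself. GPLD1, which cleaves GPI-anchored proteins from membranes, read 2.54, 2.9 and 2.91 at day 7 and 10.45, 8.52 and 8.9 at day 14, at least 39.2-fold by that measure (limma adjusted p = 0.0135). SLC52A3, a riboflavin carrier, read 2.11, 2.09 and 2.33 and then 7.28, 5.47 and 5.44, at least 4.19-fold (limma adjusted p = 0.00176). IGFBP1, a secreted binder of insulin-like growth factors and a known marker of the bovine luteal endometrium, read 2.24, 2.18 and 2.19 and then 9.35, 6.83 and 6.91. Its day 7 arrays were all alike at background, and at day 14 it stood at least 13-fold above the filter level (limma adjusted p = 0.0222). The retinol carrier RBP4 read 1.92, 1.9 and 1.91 and then 6.96, 5.74 and 4.41, at least 3.26-fold (limma adjusted p = 0.0262). SLC16A1, a carrier of lactate and pyruvate, read 2.56, 2.53 and 2.54 and then 9.46, 4.9 and 8.39, with pool 2 of day 14 again the lowest, and rose at least 12-fold (limma adjusted p = 0.0164). PLET1, a surface protein of epithelia, read 2.03, 2.0 and 2.0 and then 11.98, 5.71 and 9.43, with CDd14 pool 2 far under the other day 14 pools, and rose at least 32.9-fold (limma adjusted p = 0.0243). A further probe set of PLET1 did not pass (log2 4.12, limma adjusted p = 0.0705). The call was lost for PLET1 without CDd7 pool 1 or 2 or CDd14 pool 1 or 3 (limma adjusted p 0.0588 to 0.0771), for IGFBP1 without CDd7 pool 1 or 2 or CDd14 pool 1 (limma adjusted p 0.0544 to 0.0721), for RBP4 without CDd7 pool 1 or 2 or CDd14 pool 1 or 2 (limma adjusted p 0.0619 to 0.0811) and for SLC16A1 without CDd7 pool 2 or CDd14 pool 1 or 3 (limma adjusted p 0.051 to 0.0583).

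Among the falls, EDN3, a vasoactive peptide that acts on smooth muscle and epithelium, went from 12.43, 11.87 and 11.11 on the CDd7 arrays to 3.96, 4.26 and 4.08 on the CDd14 arrays. It was among the brighter genes at day 7 on all pools and at about the filter level on all pools at day 14. It fell 208-fold (log2 -7.7 ± 1.45, limma adjusted p = 0.00702). PRODH, the mitochondrial enzyme that begins proline breakdown, went from 11.48, 11.72 and 10.36 to 5.26, 4.4 and 4.99 and fell 78.9-fold (log2 -6.3 ± 0.76, limma adjusted p = 0.00203). LPL, which frees fatty acids from circulating lipoproteins, went from 13.25, 11.62 and 10.96 to 5.67, 6.17 and 5.9. Its day 7 pools spread over more than 2 log2 units and its day 14 pools over less than 1, with no overlap, and it fell 65.3-fold (log2 -6.03 ± 0.91, limma adjusted p = 0.00344). CCNB1, the cyclin that drives entry into mitosis, went from 12.24, 12.46 and 11.65 to 6.03, 5.65 and 6.5 and fell 66.6-fold (log2 -6.06 ± 0.97, limma adjusted p = 0.00418). The probe set listed for SPC24, a kinetochore subunit, went from 13.61, 13.34 and 12.29 to 6.81, 6.29 and 7.03 and fell 82.9-fold (log2 -6.37 ± 0.97, limma adjusted p = 0.00354). PDZK1, a scaffold of apical membrane carriers, went from 13.78, 13.77 and 13.25 to 8.23, 5.31 and 8.6, with CDd14 pool 2 the lowest, and fell 74.7-fold (log2 -6.22 ± 1.72, limma adjusted p = 0.0274). The other 5 falls kept their call with any 1 array left out, while that of PDZK1 was lost without CDd7 pool 1 or 2 or CDd14 pool 1, 2 or 3 (limma adjusted p 0.0509 to 0.0883).

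Other large falls were in membrane and signalling proteins. SLC39A8, a zinc and manganese importer and so a relative of SLC39A2, went the other way, from 14.92, 14.38 and 13.19 to 9.71, 9.14 and 10. It was one of the brightest genes at day 7 and remained well above background at day 14, a fall of 23.4-fold (log2 -4.55 ± 0.61, limma adjusted p = 0.00262). SUSD2, a sushi-domain membrane protein, went from 10.5, 9.82 and 9.24 to 4.04, 4.2 and 4.16 and fell 52.7-fold (log2 -5.72 ± 0.64, limma adjusted p = 0.00176). DAPL1, an epithelial differentiation protein, went from 11.49, 9.91 and 9.95 to 5.28, 4.43 and 4.44 and fell 53.3-fold (log2 -5.73 ± 0.75, limma adjusted p = 0.00256). Both PRKCQ and DGKA act in diacylglycerol signalling: PRKCQ, a protein kinase C, fell 26.9-fold (log2 -4.75 ± 0.58, limma adjusted p = 0.00203), and DGKA, which removes the diacylglycerol that activates such kinases, fell 25.1-fold (log2 -4.65 ± 0.57, limma adjusted p = 0.00213). SLC6A20, a proline carrier, went from 10.26, 10.78 and 10.68 to 5.28, 5.52 and 5.81 and fell 32.8-fold (log2 -5.04 ± 0.86, limma adjusted p = 0.00492). GNMT, which uses up S-adenosylmethionine to methylate glycine, fell 25.1-fold (log2 -4.65 ± 0.96, limma adjusted p = 0.00951). MAL, a protein of apical membrane sorting, went from 10.13, 10.88 and 10.89 to 7.41, 5.81 and 6.3 and fell 17.5-fold (log2 -4.13 ± 0.55, limma adjusted p = 0.00256). None of these 8 calls was lost when 1 array was left out.

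Near-background falls, whose day 14 level is not a measured amount, are given against the filter level. BSP3, a seminal-plasma-type binder protein, went from 10.43, 9.51 and 9.21 to 3.14, 2.93 and 3.07, at least 52.6-fold (limma adjusted p = 0.00392). CLDN5, a tight junction claudin best known from endothelium, went from 7.21, 5.78 and 6.17 to 2.05, 2.03 and 1.66, at least 5.24-fold (limma adjusted p = 0.00176). TIMP3, a matrix-bound inhibitor of metalloproteinases, went from 8.8, 7.6 and 6.09 to 3.8, 3.98 and 2.93, at least 11.3-fold (limma adjusted p = 0.00765). GCLC, the enzyme that limits glutathione synthesis, went from 7.92, 7.45 and 6.98 to 4.12, 3.61 and 4.02, at least 10.9-fold (limma adjusted p = 0.00303). COL4A4, a basement membrane collagen chain, went from 6.84, 7.42 and 5.53 to 3.77, 2.64 and 2.77, at least 6.06-fold (limma adjusted p = 0.00268). In each of these genes every day 14 value lay below every day 7 value, which was required of genes named for the size of their change.

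Gene lists were described by how many of their measured members passed the threshold, beside 9.87% upward, 14.2% downward and a median difference of 0 log2 units over all genes. Many counts moved clearly when 1 array was left out, when the 3′ to 5′ score entered the fit or without the level filter (unfiltered). Not all such values are given with the lists, so a count without them is not thereby stable. Lipid uptake genes that fell, for example, numbered 1 to 4 with 1 array left out and 0 with the score in the fit. Amino acid metabolism genes that rose numbered 1 to 4 and 0, and heat shock and unfolded protein genes that rose 1 to 3 and 0. With the score in the fit, 1 zinc gene and 0 vasoactive peptide genes fell. Of 36 interferon-stimulated genes, 17 rose and none fell, and the median difference was 0.87. The difference was negative in 6 of the 36, the lowest at -1.87 log2 units. With 1 array left out, 0 to 2 members fell. TRIM25, a ubiquitin ligase of the RNA-sensing pathway, read 9.69, 9.43 and 9.92 at day 7 and 11.24, 11.01 and 10.8 at day 14, with no overlap, and rose 2.52-fold (log2 1.34 ± 0.17, limma adjusted p = 0.00244). MX1, a GTPase that blocks viruses, read 7.69, 8.67 and 9.06 and then 9.96, 9.77 and 10.17 and rose 2.81-fold (log2 1.49 ± 0.29, limma adjusted p = 0.00767). UBA7, the enzyme that activates ISG15 for attachment to proteins, read 5.59, 5.4 and 6.09 and then 7.09, 7.54 and 7.25 and rose 3.03-fold (log2 1.6 ± 0.34, limma adjusted p = 0.0101). USP18, which removes ISG15 again, rose 2.78-fold (log2 1.47 ± 0.3, limma adjusted p = 0.00873), and ISG15 itself read 4.73, 5.39 and 7.09 and then 7.62, 7.63 and 7.99, a rise of 4.04-fold (log2 2.01 ± 0.64, limma adjusted p = 0.0452) with CDd7 pool 3 close under the day 14 values. The ADP-ribosyltransferase PARP9 rose 1.85-fold (log2 0.89 ± 0.14, limma adjusted p = 0.00429). IRF7 did not pass (log2 -0.44 ± 0.15, limma adjusted p = 0.0568). The count of members that rose was 1 with the score in the fit, 5 without CDd7 pool 2, 7 without CDd7 pool 1 or CDd14 pool 3, 9 without CDd14 pool 2, 10 unfiltered and 11 without CDd14 pool 1. The call of ISG15 was lost without CDd7 pool 1 or 2, CDd14 pool 1, 2 or 3, NPd7 pool 1, 2 or 3 or NPd14 pool 2 (limma adjusted p 0.0504 to 0.142).

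**Figure D3:**
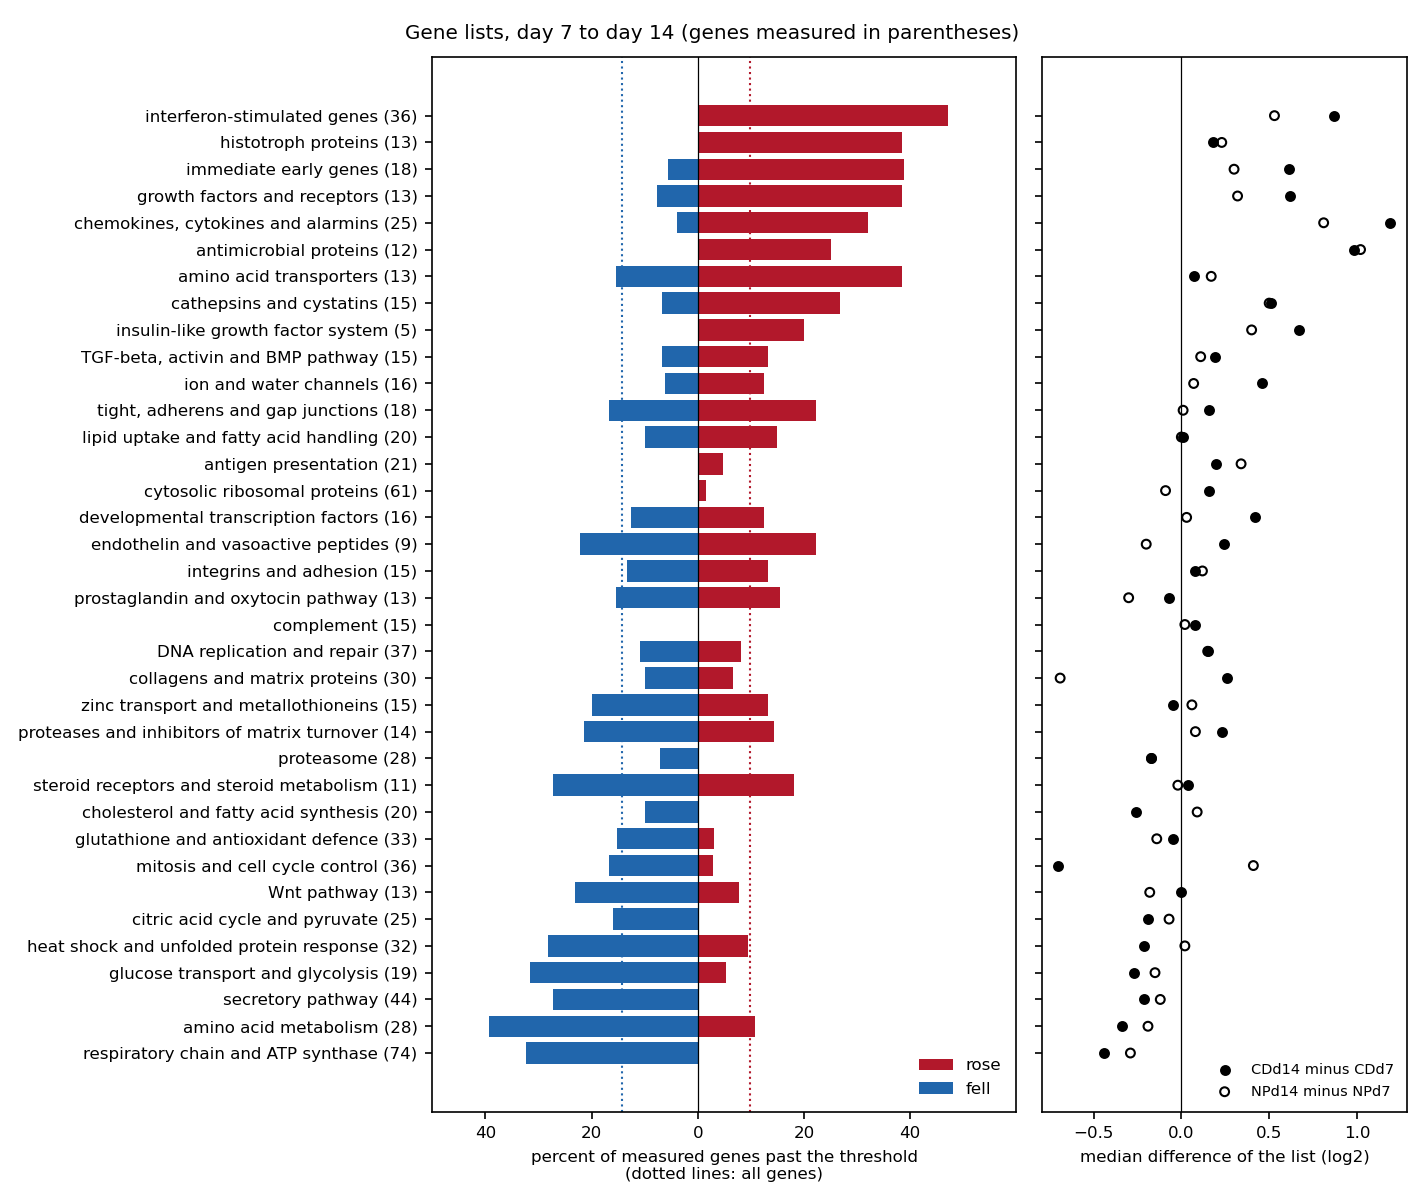
Left, percent of each of 36 function lists that rose or fell between CDd7 and CDd14, with dotted lines at the shares over all genes (9.87% and 14.2%). Right, the median log2 difference of each list, filled for day 14 minus day 7 in the CD group and open for the same in the NP group; interferon-stimulated genes sit at 0.87 and 0.53, mitosis genes at -0.70 and 0.41.

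Chemokines, cytokines and alarmins rose in 8 of 25 measured members and fell in 1, with a median difference of 1.19. CXCL2, a further neutrophil chemokine, read 10.34, 9.11 and 10.41 at day 7 and 11.92, 12.73 and 12.05 at day 14 and rose 4.84-fold (log2 2.27 ± 0.51, limma adjusted p = 0.0131). S100A12, a calcium-binding alarmin of granulocytes, read 6.88, 4.65 and 7.44 and then 10.03, 9.01 and 10.45 and rose 11.4-fold (log2 3.51 ± 0.87, limma adjusted p = 0.0185). IL18, an epithelial cytokine, rose 2.45-fold (log2 1.3 ± 0.31, limma adjusted p = 0.0166), and NFKB1, a subunit of the NF-kappaB factor that drives many of these genes, rose 2.53-fold (log2 1.34 ± 0.28, limma adjusted p = 0.0103). Antimicrobial proteins rose in 3 of 12 members with a median of 0.98, among them PIGR, which carries antibodies across epithelium and rose 2.52-fold (log2 1.33 ± 0.37, limma adjusted p = 0.0286). LTF, the iron-binding milk protein lactoferrin, was among the brightest genes on both days and did not pass (log2 -0.14 ± 0.11, limma adjusted p = 0.381). The 5 measured neutrophil markers include S100A12 and LTF, already named here, so their level is not independent of these genes. Their mean level was 5.74 to 6.97 on the CDd7 arrays and 7.74 to 8.06 on the CDd14 arrays. That mean weighs the 5 markers alike, CXCR1 included, which averaged 3.35 over the 12 arrays, under the filter level. The log2 of their summed level was 15.34, 15.24 and 15.42 on the CDd7 arrays and 15.06, 15.33 and 15.32 on the CDd14 arrays (two-sided exact permutation test p = 0.4). LTF, the brightest of the 5, averaged 15.29. Of the 5 markers 1 passed the threshold, S100A12. Their median difference of 1.10 was 0.36 with the score in the fit and 0.13 to 1.64 with 1 array left out. The part of neutrophils in the result was not tested. The chemokine count that rose was 1 with the score in the fit, 2 without CDd7 pool 2 and 5 without CDd14 pool 2 or unfiltered. The antimicrobial count was 0 with the score in the fit and 1 without CDd7 pool 2 or CDd14 pool 2 or 3 or unfiltered. The call was lost for CXCL2 without CDd7 pool 2 (limma adjusted p = 0.054), for S100A12 without CDd7 pool 2 or CDd14 pool 3 (limma adjusted p 0.0653 to 0.0697), for IL18 without CDd7 pool 2 (limma adjusted p = 0.0594) and for PIGR without CDd7 pool 2 or CDd14 pool 1, 2 or 3 (limma adjusted p 0.0546 to 0.0946).

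Immediate early genes, the transcripts that respond first to growth and stress signals, rose in 7 of 18 measured members and fell in 1, with a median of 0.61. FOS, a subunit of the AP-1 factor, read 8.97, 9.09 and 9.02 at day 7 and 10.28, 11.15 and 10.44 at day 14. The day 7 pools were nearly equal and all under the day 14 pools, and FOS rose 3.02-fold (log2 1.59 ± 0.23, limma adjusted p = 0.00289). ATF3, a stress-induced partner of such factors, read 5.98, 6.95 and 7.3 and then 9.02, 8.99 and 8.76 and rose 4.54-fold (log2 2.18 ± 0.48, limma adjusted p = 0.0119). MYC, a growth-promoting factor, read 9.14, 8.86 and 9.3 and then 10.42, 10.56 and 10.49 and rose 2.62-fold (log2 1.39 ± 0.29, limma adjusted p = 0.00949). GADD45A, which halts the cell cycle after stress, read 10.08, 9.97 and 10.48 and then 11.74, 11.75 and 11.75, and rose 2.97-fold (log2 1.57 ± 0.16, limma adjusted p = 0.00156). The immediate early count that rose was 2 with the score in the fit and 4 without CDd7 pool 2 or CDd14 pool 1 or unfiltered.

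Growth factors and their receptors rose in 5 of 13 measured members and fell in 1, with a median of 0.62. FGF2, a fibroblast growth factor that FGFBP1 can release, read 5.4, 6.22 and 6.61 at day 7 and 7.47, 7.98 and 7.53 at day 14 and rose 3-fold (log2 1.58 ± 0.35, limma adjusted p = 0.0119). MET, the receptor of hepatocyte growth factor, read 6.01, 5.72 and 6.78 and then 9.17, 8.01 and 8.31 and rose 5.01-fold (log2 2.32 ± 0.41, limma adjusted p = 0.00577). PDGFRA, a receptor of stromal cells, rose 3.04-fold (log2 1.6 ± 0.39, limma adjusted p = 0.0173). VEGFB, a vessel growth factor, was the member that went down, from 11.34, 11.08 and 10.37 to 8.78, 8.91 and 8.8, a fall of 4.28-fold (log2 -2.1 ± 0.38, limma adjusted p = 0.00597). In the insulin-like growth factor system only IGFBP1 of the 5 measured members passed. The growth factor count that rose was 1 with the score in the fit and 3 without CDd7 pool 2, and the call of PDGFRA was lost without CDd7 pool 2 or CDd14 pool 1 (limma adjusted p 0.051 to 0.0613).

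Proteins of the uterine secretion rose in 5 of 13 measured members and none fell, with a median of 0.18. Besides SERPINA14 and PIGR they included AGR2, a folding enzyme of mucus proteins, which read 13.26, 12.58 and 13.58 and then 13.9, 14.38 and 14.06 and rose 1.96-fold (log2 0.97 ± 0.23, limma adjusted p = 0.0152). SPP1, a secreted adhesion protein that binds integrins at implantation, read 9.45, 8.66 and 10 and then 7.15, 10.27 and 11.25. CDd14 pool 1 was under every day 7 pool and pools 2 and 3 above them, and the log2 difference of 0.18 ± 1.14 did not pass (limma adjusted p = 0.922). Cathepsins and their inhibitors rose in 4 of 15 members and fell in 1, with a median of 0.51. CTSH, a lysosomal cathepsin, read 4.97, 5.17 and 6.56 and then 9.43, 6.88 and 8.58, with CDd14 pool 2 close above the highest day 7 pool, and rose 6.65-fold (log2 2.73 ± 0.74, limma adjusted p = 0.0252). These counts rest on few arrays. The histotroph count was 0 with the score in the fit, 2 without CDd7 pool 2 or CDd14 pool 1 or 2 and 3 without CDd7 pool 1 or CDd14 pool 3 or unfiltered. The cathepsin count that rose was 0 without CDd7 pool 1 or 2 or CDd14 pool 3 or with the score in the fit, 1 without CDd14 pool 1 or 2 or unfiltered and 2 without CDd7 pool 3 or NPd7 pool 1 or 3. The call was lost for AGR2 without CDd14 pool 2 (limma adjusted p = 0.0511) and for CTSH without CDd7 pool 1 or 2 or CDd14 pool 1 or 3 (limma adjusted p 0.0757 to 0.0904).

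Zinc is the metal moved by the top riser and by SLC39A8. The list of zinc carriers and metal-binding metallothioneins was split: 2 of 15 measured members rose and 3 fell. SLC39A11, a zinc importer of internal membranes, read 10.81, 10.18 and 10.55 at day 7 and 11.52, 11.33 and 11.42 at day 14 and rose 1.88-fold (log2 0.91 ± 0.19, limma adjusted p = 0.00914). SLC30A5, which loads zinc into the secretory pathway, went from 12.98, 12.83 and 12.61 to 11.38, 11.44 and 11.45 and fell 2.6-fold (log2 -1.38 ± 0.28, limma adjusted p = 0.00944). SLC39A7, which releases zinc from the endoplasmic reticulum, fell 1.55-fold (log2 -0.64 ± 0.16, limma adjusted p = 0.0191). The zinc count that rose was 0 with the score in the fit and 5 without CDd7 pool 3, and the call of SLC39A7 was lost without CDd7 pool 1 or 2 or CDd14 pool 1 or 3 (limma adjusted p 0.0502 to 0.0683).

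Amino acid carriers rose in 5 of 13 measured members and fell in 2. SLC1A5, the glutamine carrier, read 9.44, 9.39 and 9.68 and then 10.41, 10.31 and 10.31 and rose 1.79-fold (log2 0.84 ± 0.15, limma adjusted p = 0.00625). SLC6A14, a broad carrier of neutral and basic amino acids, read 9.72, 9.33 and 10.37 and then 11.42, 11.91 and 11.31 and rose 3.34-fold (log2 1.74 ± 0.48, limma adjusted p = 0.0266). SLC3A2, the heavy chain shared by several exchangers, fell 1.6-fold (log2 -0.68 ± 0.12, limma adjusted p = 0.0059). Ion and water channels rose in 2 of 16 (12.5%, near the 9.87% of all genes) and fell in 1, with a median of 0.46. They included SLC12A2, which brings chloride into secreting cells and rose 4-fold (log2 2.0 ± 0.46, limma adjusted p = 0.0139), and ATP2B1, a calcium pump of the plasma membrane that rose 1.96-fold (log2 0.97 ± 0.16, limma adjusted p = 0.00435). Lipid uptake rose in 3 of 20 and fell in 2: CD36, a fatty acid receptor, rose 3.92-fold (log2 1.97 ± 0.54, limma adjusted p = 0.0273), while LPL fell, and the fatty acid carrier SLC27A6 went from 10.05, 8.31 and 6.84 to 4.28, 3.51 and 3.66, at least 21.1-fold against the filter level (limma adjusted p = 0.0171). DGAT2, an enzyme of triglyceride synthesis, did not pass (log2 -1.25 ± 1.59, limma adjusted p = 0.584). The ion channel count that rose was 0 with the score in the fit, 1 without CDd7 pool 2 and 4 without CDd7 pool 3. The amino acid carrier count that rose was 0 with the score in the fit, 1 without CDd7 pool 2 or CDd14 pool 1, 2 without CDd7 pool 1 or CDd14 pool 2, unfiltered or with the 6 CD arrays alone and 3 without CDd7 pool 3, CDd14 pool 3 or NPd7 pool 1. The lipid uptake count that rose was 0 without CDd7 pool 1 or 2 or CDd14 pool 3 or with the score in the fit, 1 without CDd14 pool 2 or unfiltered and 5 without NPd14 pool 2. Calls were lost without CDd7 pool 1 or 2 or CDd14 pool 1, 2 or 3 (limma adjusted p 0.055 to 0.102) for SLC6A14, without CDd7 pool 2 (limma adjusted p = 0.0565) for SLC12A2 and without CDd7 pool 1 or 2 or CDd14 pool 2 or 3 (limma adjusted p 0.0561 to 0.086) for CD36.

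Amino acid metabolism fell in 11 of 28 measured members and rose in 3, with a median of -0.34. They included 3 enzymes of the polyamine branch, which makes small cations that growing cells need. ODC1, which makes the first polyamine from ornithine, went from 15.48, 15.51 and 15.33 to 12.67, 12.87 and 13.03 and fell 6.01-fold (log2 -2.59 ± 0.4, limma adjusted p = 0.00379). SMS, which makes spermine, went from 10.89, 11.17 and 10.64 to 8.89, 8.61 and 9.13 and fell 4.07-fold (log2 -2.02 ± 0.29, limma adjusted p = 0.00304). SAT1, which breaks polyamines down, went from 15.03, 15.23 and 14.96 to 13.24, 13.14 and 13.2 and fell 3.68-fold (log2 -1.88 ± 0.26, limma adjusted p = 0.00268). In all 3 enzymes the pools of a day lay close together and the days far apart. GATM, which begins creatine synthesis from arginine and glycine, moved the other way, from 11.79, 11.27 and 11.7 to 14.08, 13.17 and 13.59, and rose 4.08-fold (log2 2.03 ± 0.33, limma adjusted p = 0.00429). The amino acid metabolism count that fell was 1 with the score in the fit and 7 without CDd7 pool 2 or CDd14 pool 3.

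Respiratory chain and ATP synthase genes fell in 24 of 74 measured members and none rose, with a median of -0.44 and a negative difference in 71. NDUFB6, a subunit of complex I, went from 12.93, 12.87 and 12.63 to 11.94, 11.76 and 11.82 and fell 1.96-fold (log2 -0.97 ± 0.16, limma adjusted p = 0.00423). SDHB, the iron-sulphur subunit of complex II, went from 12.42, 12.4 and 12.22 to 11.62, 11.37 and 11.63 and fell 1.75-fold (log2 -0.81 ± 0.17, limma adjusted p = 0.0108). ATP5MC1, part of the rotor of ATP synthase, went from 11.08, 11.34 and 10.73 to 9.82, 9.55 and 9.5 and fell 2.68-fold (log2 -1.42 ± 0.31, limma adjusted p = 0.0116). The citric acid cycle fell in 4 of 25 members (16%, near the 14.2% of all genes) and none rose. OGDH, the oxoglutarate dehydrogenase, went from 11.65, 11.97 and 11.14 to 8.94, 8.31 and 8.53 and fell 7.95-fold (log2 -2.99 ± 0.42, limma adjusted p = 0.00283). Glycolysis fell in 6 of 19 and rose in 1, the glucose carrier SLC5A1. LDHA, which turns pyruvate to lactate, went from 14.12, 14.27 and 14.23 to 12.13, 13.14 and 13.08, with CDd14 pool 1 the lowest, and fell 2.68-fold (log2 -1.42 ± 0.29, limma adjusted p = 0.00904), and its remaining 2 probe sets gave 0.36 and -0.04. LDHB, the partner subunit, fell 1.82-fold (log2 -0.87 ± 0.18, limma adjusted p = 0.00909). The respiratory count was 0 with the score in the fit, 3 without CDd7 pool 2, 8 without CDd14 pool 3, 10 without CDd14 pool 2, 11 without CDd7 pool 1 and 14 unfiltered. The citric acid cycle count was 0 with the score in the fit and 1 without CDd7 pool 2 or CDd14 pool 2 or 3. The glycolysis count was 0 with the score in the fit and 2 without CDd7 pool 2 or CDd14 pool 2, and the call of ATP5MC1 was lost without CDd7 pool 2 (limma adjusted p = 0.0517).

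Genes of protein export and folding fell in part. The secretory pathway fell in 12 of 44 measured members and none rose, with a median of -0.21. SEC61G, a subunit of the channel into the endoplasmic reticulum, went from 14.58, 14.33 and 14.07 to 13.18, 13.32 and 13.06 and fell 2.21-fold (log2 -1.14 ± 0.21, limma adjusted p = 0.00668). SEC31A, a coat protein of outgoing vesicles, went from 13.86, 13.81 and 13.63 to 12.88, 12.99 and 12.94 and fell 1.78-fold (log2 -0.83 ± 0.16, limma adjusted p = 0.00755). Heat shock and unfolded protein genes fell in 9 of 32 and rose in 3. BAG3, a chaperone partner, went from 12.05, 12.25 and 11.71 to 10.47, 10.45 and 10.59 and fell 2.83-fold (log2 -1.5 ± 0.26, limma adjusted p = 0.00518). CRELD2, a stress-induced protein of the endoplasmic reticulum, fell 4.58-fold (log2 -2.2 ± 0.49, limma adjusted p = 0.0124), and CANX, a lectin chaperone there, fell 1.56-fold (log2 -0.64 ± 0.13, limma adjusted p = 0.00981). HSPA5, the main chaperone of the compartment, did not pass (log2 -0.36 ± 0.15, limma adjusted p = 0.103). The secretory count was 0 with the score in the fit, 2 without CDd7 pool 2 or CDd14 pool 3, 3 without CDd7 pool 1 or CDd14 pool 1, 5 without NPd7 pool 1 or NPd14 pool 1 or unfiltered, 6 without NPd7 pool 2 or with the 6 CD arrays alone and 7 without CDd14 pool 2 or after quantile normalisation. The folding count that fell was 0 with the score in the fit, 3 without CDd7 pool 2 or CDd14 pool 3, 4 without CDd7 pool 1 or CDd14 pool 1 and 5 unfiltered.

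Glutathione and antioxidant genes fell in 5 of 33 measured members (15.2%, near the 14.2% of all genes) and rose in 1, with a median of -0.05. TXNRD1, the thioredoxin reductase, went from 12.79, 12.25 and 11.94 to 10.4, 10.34 and 10.72 and fell 3.57-fold (log2 -1.84 ± 0.28, limma adjusted p = 0.00346), and PRDX2, a peroxidase, fell 1.71-fold (log2 -0.77 ± 0.15, limma adjusted p = 0.0075). GSTK1, a glutathione transferase of mitochondria and peroxisomes, read 11.22, 10.82 and 11.36 and then 12.35, 12.14 and 11.92 and rose 2-fold (log2 1.0 ± 0.19, limma adjusted p = 0.00747). Cytosolic ribosomal proteins passed in 1 of 61, RPL26, which rose 1.33-fold (log2 0.41 ± 0.12, limma adjusted p = 0.0356), while 55 of the 61 had a positive difference and the median was 0.16 (0.11 with array medians set equal). That count was 0 without CDd7 pool 2 or 3, CDd14 pool 1, 2 or 3, NPd7 pool 1 or NPd14 pool 1, with array medians set equal, with the 6 CD arrays alone or with the score in the fit, 3 with probe sets of a gene averaged, 5 unfiltered or after quantile normalisation and 12 with trended, robust moderation. The antioxidant count that fell was 0 with the score in the fit and 3 without CDd7 pool 2, and the call of RPL26 was lost without CDd7 pool 2 or 3, CDd14 pool 1, 2 or 3, NPd7 pool 1 or NPd14 pool 1 (limma adjusted p 0.0525 to 0.126).

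Mitosis and cell cycle control genes fell in 6 of 36 measured members (16.7%, near the 14.2% of all genes) and rose in 1, with a median of -0.70. Their mean level on the CDd7 arrays was 7.35 for pool 1, 9.3 for pool 2 and 8.96 for pool 3, against 7.52, 7.41 and 7.52 at day 14, so that CDd7 pool 1 was no higher than the day 14 pools. CDC20, which starts the separation of chromosomes, was also lowest at day 7 in pool 1, at 4.85, 9.53 and 8.99 and then 4.06, 3.96 and 3.27, and fell at least 13.8-fold against the filter level (limma adjusted p = 0.0206). CDK1, the kinase that CCNB1 activates, read 8.16, 10.8 and 10.48 and then 8.08, 7.44 and 7.08 and fell 4.86-fold (log2 -2.28 ± 0.62, limma adjusted p = 0.0257), with CDd7 pool 1 level with the highest day 14 pool. CCNB1 itself and TFDP2, a partner of the E2F factors, had CDd7 pool 1 well apart from day 14. TFDP2 went from 6.72, 6.69 and 6.86 to 3.66, 4.19 and 4.37 and fell 6.43-fold (log2 -2.68 ± 0.21, limma adjusted p = 0.000894). Genes of DNA replication and repair rose in 3 of 37 and fell in 4. RPA2, a binder of single-stranded DNA, read 8.99, 8.69 and 8.8 and then 10.06, 9.78 and 9.81 and rose 2.08-fold (log2 1.06 ± 0.17, limma adjusted p = 0.00423), while CHAF1A, which loads histones on new DNA, fell 1.88-fold (log2 -0.91 ± 0.18, limma adjusted p = 0.00775). In DNA replication and repair the count that rose was 0 with the score in the fit and 1 without CDd7 pool 2 or CDd14 pool 1 or 3 or unfiltered, and the count that fell 0 with the score in the fit and 2 without CDd7 pool 2. The mitosis count that fell was 0 with the score in the fit, 3 without CDd7 pool 2 or 3 or CDd14 pool 3, unfiltered or with the 6 CD arrays alone and 22 without CDd7 pool 1. The call was lost for CDC20 without CDd7 pool 2 or 3 or CDd14 pool 3 (limma adjusted p 0.053 to 0.0824) and for CDK1 without CDd7 pool 2 or 3 or CDd14 pool 2 or 3 (limma adjusted p 0.0663 to 0.1).

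For steroid hormones, 2 of 11 measured members rose and 3 fell. NR3C1, the glucocorticoid receptor, read 8.66, 8.2 and 9.06 at day 7 and 10.23, 10.63 and 10.53 at day 14 and rose 3.54-fold (log2 1.82 ± 0.35, limma adjusted p = 0.00755). The probe sets of PGR and ESR1, the progesterone and oestrogen receptors, were under the filter, at 2.11 to 2.16 and 1.59 to 1.63 over all 12 arrays, so no change of either could be measured. Prostaglandin and oxytocin genes rose in 2 of 13 and fell in 2. PTGER2, a receptor of prostaglandin E2, read 3.92, 4.28 and 4.8 and then 6.59, 5.64 and 6.18 and rose 3.49-fold (log2 1.8 ± 0.4, limma adjusted p = 0.0122). PTGER4, a further receptor of the same ligand, went the other way, from 12.17, 11.64 and 10.91 to 8.72, 8.81 and 9.09, and fell 6.49-fold (log2 -2.7 ± 0.45, limma adjusted p = 0.00456). PTGIS, the prostacyclin synthase, went from 8.96, 9.85 and 8.22 to 6.48, 6.53 and 6.88 and fell 5.21-fold (log2 -2.38 ± 0.35, limma adjusted p = 0.00303). PTGS2, the inducible cyclooxygenase, read 6.78, 9.27 and 8.61 and then 11.78, 9.8 and 11.75, and did not pass (log2 2.89 ± 2.47, limma adjusted p = 0.41), while a further probe set of it did (log2 3.82, limma adjusted p = 0.0469). OXTR, the oxytocin receptor that luteolysis uses, did not pass (log2 0.12 ± 0.43, limma adjusted p = 0.864). The steroid count that fell was 0 without CDd7 pool 2 or with the score in the fit and 1 without CDd7 pool 1 or CDd14 pool 3. The steroid count that rose was 0 with the score in the fit and 1 without CDd7 pool 2 or 3, CDd14 pool 1 or 3, NPd7 pool 1, 2 or 3 or NPd14 pool 1, unfiltered or with the 6 CD arrays alone. For prostaglandin and oxytocin genes the count that rose was 0 with the score in the fit and 1 without CDd7 pool 2 or CDd14 pool 1, and the count that fell 0 with the score in the fit.

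Vasoactive peptides rose in 2 of 9 measured members and fell in 2, both endothelins: EDN3 and EDN1, the latter from 10.9, 11.14 and 10.4 to 8.23, 8.82 and 7.98, a fall of 5.54-fold (log2 -2.47 ± 0.42, limma adjusted p = 0.00479). ECE1, the enzyme that activates endothelins, rose 3.05-fold (log2 1.61 ± 0.43, limma adjusted p = 0.0243). ADM, the dilator adrenomedullin, rose 4.22-fold (log2 2.08 ± 0.54, limma adjusted p = 0.0219). Wnt pathway genes fell in 3 of 13 and rose in 1. WNT11, a ligand of the pathway, went from 9.3, 8.95 and 5.71 to 4.26, 4.19 and 3.93, with CDd7 pool 3 far under the other CDd7 pools, and fell 14.5-fold (log2 -3.86 ± 1.04, limma adjusted p = 0.025). Among 16 developmental transcription factors 2 rose and 2 fell. MSX1, a homeobox factor of the uterine epithelium, went from 14.28, 14.42 and 14.33 to 13.85, 14.02 and 13.93 and fell 1.33-fold (log2 -0.41 ± 0.11, limma adjusted p = 0.0222), and a further probe set of it fell by 1.30 log2 units (limma adjusted p = 0.00264). The Wnt count that fell was 0 without CDd7 pool 1 or 2 or CDd14 pool 1, 2 or 3, unfiltered or with the score in the fit and 1 without NPd7 pool 3 or NPd14 pool 1, and the single rise was lost (0 without CDd7 pool 1 or 2 or CDd14 pool 1, 2 or 3, unfiltered, with the 6 CD arrays alone or with the score in the fit). Among the vasoactive peptides the count that rose was 0 without CDd7 pool 2 or CDd14 pool 1, unfiltered or with the score in the fit and 1 without CDd7 pool 1 or CDd14 pool 3, with the 6 CD arrays alone or with probe sets of a gene averaged. Among the developmental factors it was 0 without CDd7 pool 1 or 2 or CDd14 pool 2 or 3, unfiltered or with the score in the fit and 1 without CDd14 pool 1, NPd7 pool 1 or NPd14 pool 1 or with array medians set equal, and the count that fell was 0 with the score in the fit and 1 without CDd7 pool 2 or CDd14 pool 1 or 3, with the stricter filter of log2 above 6 or with the 6 CD arrays alone. The call was lost for ECE1 without CDd7 pool 1 or 2 or CDd14 pool 1 (limma adjusted p 0.062 to 0.0732), for ADM without CDd7 pool 2 or CDd14 pool 1 or 3 (limma adjusted p 0.0554 to 0.0625), for WNT11 without CDd7 pool 1 or 2 or CDd14 pool 1, 2 or 3 (limma adjusted p 0.0559 to 0.0968) and for MSX1 without CDd7 pool 2 or CDd14 pool 1 or 3 (limma adjusted p 0.0653 to 0.085).

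Collagens and matrix proteins rose in 2 of 30 measured members and fell in 3, shares under those over all genes. THBS1, a matrix protein that restrains vessel growth, went from 13.95, 13.91 and 13.55 to 11.31, 11.24 and 11.52 and fell 5.44-fold (log2 -2.44 ± 0.33, limma adjusted p = 0.00256), a further probe set giving -2.27 and the other two 0.14 and 0.26. Among 14 proteases and inhibitors of matrix turnover 2 rose and 3 fell. PLAT, the tissue plasminogen activator, read 5.31, 5.5 and 6.27 and then 7.84, 9.31 and 7.35 and rose 5.53-fold (log2 2.47 ± 0.44, limma adjusted p = 0.00573), while ADAM10, a sheddase of membrane proteins, fell 2.1-fold (log2 -1.07 ± 0.18, limma adjusted p = 0.00454). Junction genes rose in 4 of 18 and fell in 3. GJB2, a gap junction connexin, read 8.42, 7.82 and 7.88 and then 11.05, 9.03 and 9.72 and rose 3.71-fold (log2 1.89 ± 0.41, limma adjusted p = 0.0117). GJB5, a related connexin, went from 8.28, 8.06 and 7.8 to 5.41, 4.96 and 4.9 and fell 7.74-fold (log2 -2.95 ± 0.39, limma adjusted p = 0.00256), and CLDN1, a sealing claudin, went from 12.73, 13.07 and 13.05 to 11.52, 12.15 and 11.55 and fell 2.31-fold (log2 -1.21 ± 0.22, limma adjusted p = 0.00668). The matrix count that rose was 0 without CDd7 pool 1 or 2 or CDd14 pool 3, unfiltered or with the score in the fit, 1 without CDd14 pool 1, NPd7 pool 1, 2 or 3 or NPd14 pool 1, after quantile normalisation or with array medians set equal and 4 without CDd7 pool 3 or NPd14 pool 3. The matrix protease count that rose was 0 with the score in the fit and 1 without CDd7 pool 2 or CDd14 pool 1 or 2. The junction count that rose was 0 with the 6 CD arrays alone or with the score in the fit and 2 without CDd7 pool 2 or 3 or CDd14 pool 1.

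Markers of other cell types were read for all members of each list. Epithelial markers rose in 3 of 16 and none fell, with mean levels of 10.86 to 10.98 on the CDd7 arrays and 11.07 to 11.3 on the CDd14 arrays. Stromal markers rose in 1 of 15 and fell in 1, with mean levels of 6.33 to 7.4 and 6.85 to 7.5. T and natural killer cell markers rose in 2 of 13, all 13 had a positive difference, and the mean levels were 5.83 to 7.19 and 7.05 to 7.71. Their median difference was 0.77, and 0.18 with the score in the fit. In NP it was -0.35, with 2 of the 13 higher. With 1 array left out, 0 to 3 epithelial and 1 to 3 of these lymphocyte markers rose. LCK, a kinase of T cell receptors, rose 2.47-fold (log2 1.3 ± 0.3, limma adjusted p = 0.014). All 6 ciliated cell markers had a negative difference (median -1.05, and 0.23 with the score in the fit) and none passed, with mean levels of 8.78 to 10.36 and then 7.34 to 9.66. Macrophage and dendritic cell markers passed in 0 of 7, at 5.4 to 6.27 and then 5.61 to 6.43. B and plasma cell markers passed in 0 of 4, with a median difference of 1.18, and 0.01 with the score in the fit. KIT, the 1 measured mast cell marker, did not pass (log2 1.31, and 0.21 with the score in the fit). Smooth muscle markers passed in 0 of 3 and red cell and platelet markers in 0 of 2. The part of tissue makeup in any gene's difference was not tested.

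**Figure D4:**
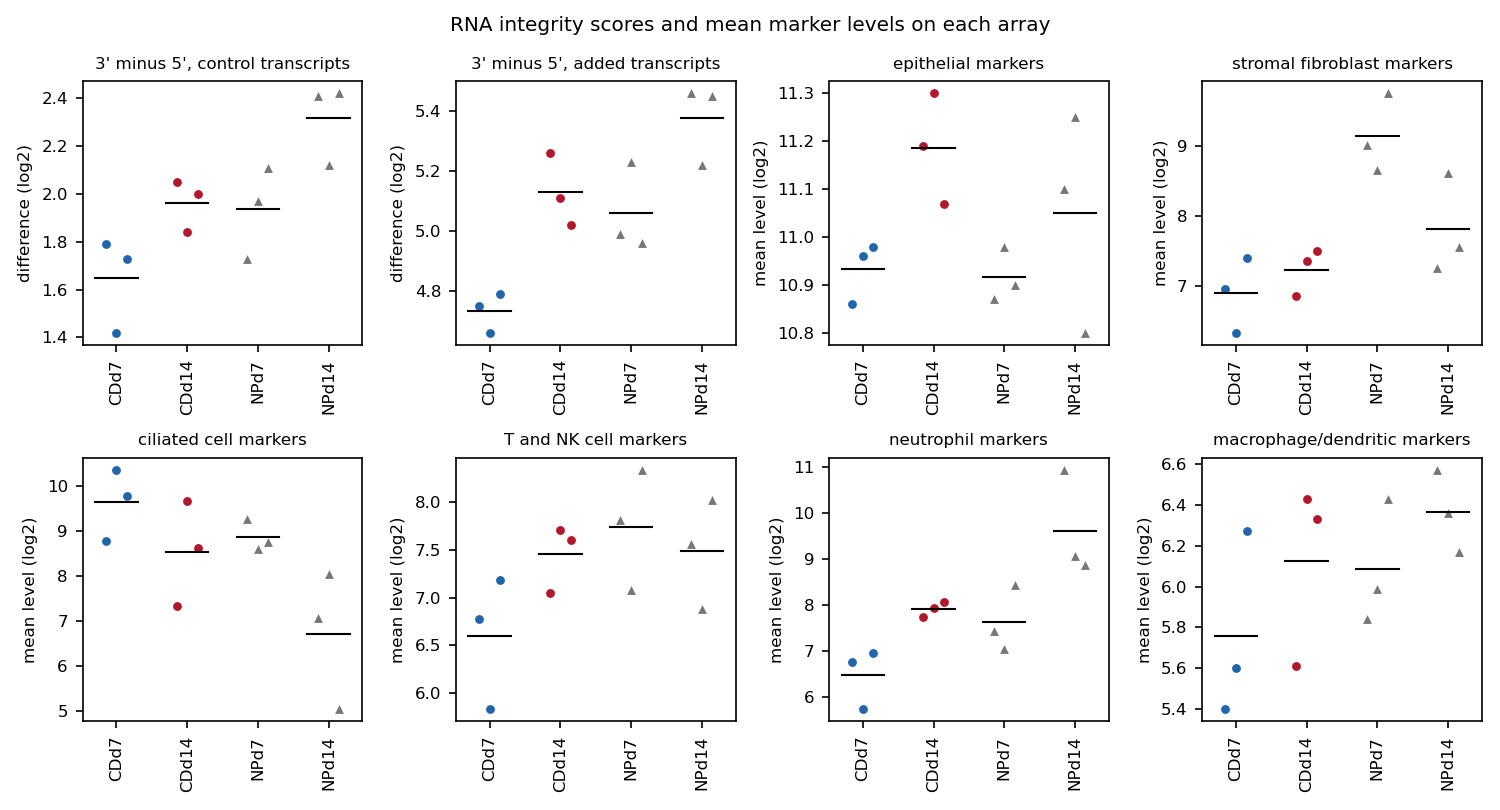
Per-array values (y axes, log2 units) of the 3′ to 5′ scores of control and of added transcripts and of the mean level of 6 marker lists, for CDd7 and CDd14 with the NP groups in grey. The scores and the neutrophil mean are higher on every CDd14 array than on every CDd7 array, while the stromal and macrophage means overlap. The summed level of the neutrophil markers, not plotted, overlaps between the days.

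The day difference was also read in the NP group, whose 6 arrays are separate from the CD arrays. There 9 genes (0.133%) passed, and 7 of these 9 (77.8%), which are 0.429% of the 1633 CD genes, passed the same way in CD. Of the 669 genes that rose in CD, 556 (83.1%) had a positive difference in NP, with median log2 differences of 0.90 in CD and 0.28 in NP. Of the 964 that fell, 888 (92.1%) had a negative difference in NP, with medians of -0.96 and -0.37. These genes were chosen for passing in CD, which by itself raises the CD medians against the NP medians. Over all genes the median size of the difference was 0.35 log2 units in CD and 0.21 in NP, and 67.9% had the same sign in both groups. The test of the difference between the groups' day effects called no probe set (smallest limma adjusted p = 0.192), with 1900 probe sets at an unadjusted p under 0.05. With the pool number as a replicate block 28 probe sets passed, without NPd7 pool 2 53, without CDd7 pool 1 22, without CDd7 pool 3 5 and without CDd14 pool 2 3. In NP the difference of SLC39A2 was 6.9, of CXCL8 5.7, of EDN3 -4.64 and of CCNB1 -2.54 log2 units, each with the sign seen in CD. The NPd14 pools lay far apart in some of these genes: SLC39A2 read 12.97, 13.26 and 5.49 and EDN3 4.8, 10.08 and 2.66 on them, where the CDd14 pools of both genes were close together.

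**Figure D5:**
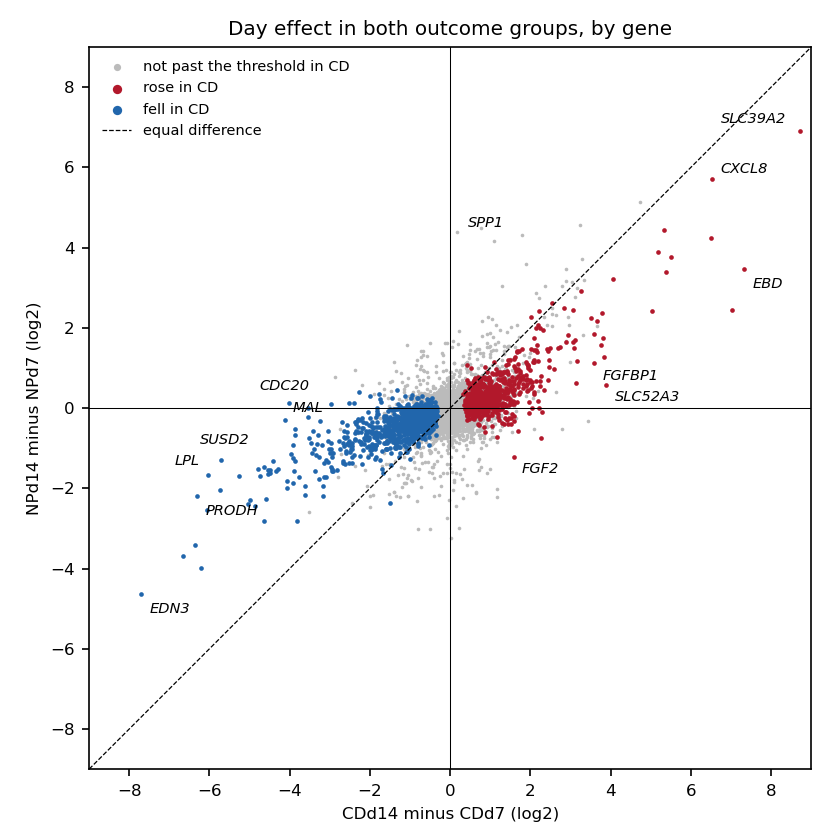
Day 14 minus day 7 difference (log2) of each gene in the CD group (x axis) against the same in the NP group (y axis), 1 point per gene, with a dashed line where both would be equal. Most genes called in CD lie between that line and the horizontal axis, as the medians of 0.90 against 0.28 for risers and -0.96 against -0.37 for fallers give for genes chosen on their CD values; over all genes the median sizes are 0.35 and 0.21.

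The genes with the smallest unadjusted p for that difference were FGFBP1, TFDP2, FGF2, SEPTIN4 and SLC52A3, all at a limma adjusted p of 0.192. FGFBP1 rose by 3.58 log2 units in CD and differed by 1.12 in NP, a gap of 2.46 ± 0.39. FGF2 read 7.8, 6.98 and 8.0 on the NPd7 arrays and 6.58, 6.57 and 5.98 on the NPd14 arrays, a difference of -1.21 against 1.58 in CD. SEPTIN4, a filament protein of the cytoskeleton, went from 10.55, 10.1 and 10.31 to 6.04, 7.24 and 6.07 in CD and fell 14.6-fold (log2 -3.87 ± 0.32, limma adjusted p = 0.00114), against -1.32 in NP. SLC52A3 differed by 0.58 log2 units in NP and GADD45A by 0.37. MAL, with -4.13 in CD, was at -0.31 in NP. These values describe the groups, and the differences between them did not pass the threshold in the fit without a block.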

How the data were processed

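The series holds 12 Affymetrix bovine arrays, 3 pools in each of 4 groups, of biotin-labelled RNA amplified from endometrial total RNA. The authors deposited log2 expression values normalised with GCRMA, per the submitters' processing notes, which also name limma. They give no versions and no probe-level files are used here. GCRMA subtracts background by probe sequence and pulls dim probe sets to a floor, so folds against values under log2 4 are not measured amounts. Samples were grouped by their titles. The array called CDd14 pool 3 is titled both as number 2 and as biological replicate 3, and was read as 3, which leaves the unblocked fit as it is.

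From these values, 112 control probe sets were dropped and 13449 of 24016 kept (log2 above 4 on at least 3 of 12 arrays). limma 3.58.1 in R 4.3.3 fitted 4 group means over all 12 arrays. Tests were two-sided moderated contrasts with Benjamini-Hochberg adjustment over the 13449 probe sets and a threshold of adjusted p under 0.05. Errors after ± are standard errors for log2 differences and SD for means. Of the kept probe sets, the platform annotation gave 8239 a single symbol, 59 several and 5151 none, and 6781 symbols were described, each by its brightest probe set. Genes were named by rule: among those past the threshold without overlap, the 15 largest changes each way with both means above log2 4, the 8 largest each way with a mean at or under it, up to 5 members of each of 47 lists with the smallest p, and the 10 smallest p for the difference of the day effects, beside 16 fixed genes. FOXA2 had no probe set of that symbol. IRF7, LTF, EPCAM and HSPA5, and the list members shown without a call, were chosen after their values were seen. The members and lists were chosen with earlier results of these data known. No set test was run. The fit was tested on simulated data with 200 of 13449 probe sets changed. The contrast of CDd14 with CDd7 recovered 43.5% at 2-fold, 81.5% at 4-fold and 91.5% at 8-fold. The difference of the day effects recovered 18%, 67% and 86.5%. In the data 3231 probe sets passed the CD contrast, far more than were changed in the simulation, so these shares do not carry over to the data. The number of arrays limits the precision, and read depth does not apply. Alternatives tried were the level filter, quantile or median scaling, trended and robust moderation, the 6 CD arrays alone, a replicate block, the 3′ to 5′ score in the fit, averaging the probe sets of a gene, and leaving out each array.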

Additional observations from a re-analysis of the deposited data

Results flagged for a closer look

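FGF2, a fibroblast growth factor, was singled out because its day difference had opposite signs in the outcome groups. In the CD group it rose by 1.58 log2 units, with every CDd14 array above every CDd7 array, and in the NP group the difference was -1.21, with every NPd14 array below every NPd7 array. The difference of the day effects was 2.80 ± 0.49 log2 units (unadjusted p = 0.000195, limma adjusted p = 0.192) and did not pass the threshold.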

How the results depend on the processing

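With 3 pools a group and pools of unstated size, small changes could be missed, and levels under log2 4 have no order. Against 3231 probe sets and 1633 genes, the counts were 2434 without the filter, 3050 with the filter at log2 6, 3162 after quantile normalisation, 3171 with array medians set equal, 3333 with trended and robust moderation, 2637 with the 6 CD arrays alone and 1674 genes with the probe sets of a gene averaged. With the 3′ to 5′ score in the fit, 174 probe sets passed, 52 upward and 122 downward, and 68 genes, and 22 of 185 named genes kept their call. The cause was not tested. With 1 array left out, the probe sets numbered 1320 to 3732 (511 to 1892 upward, 809 to 1840 downward) and the genes 652 to 1870, lowest without CDd7 pool 2 (652), CDd14 pool 3 (809) and CDd14 pool 2 (1084). The rises numbered 918 without CDd7 pool 1 and 1019 without CDd14 pool 1. Of the 185 named genes that passed, 93 kept their call with any array left out. Under the 21 settings 22 kept it wherever they were measured, of which CLDN5 and SLC52A3 were not measured with the filter at log2 6. For the difference of the day effects, 0 probe sets became 1 without the filter, 28 with a replicate block and 0 to 53 with 1 array left out (53 without NPd7 pool 2). The same-numbered pools of CD correlated at 0.24, -0.07 and 0.23 in their deviations and those of NP at 0.16, 0.62 and 0.51. Differently numbered pools gave -0.38 to 0.24 in CD and -0.54 to 0.19 in NP. Not every same-numbered pair passed 0.1, and the main fit did not take the numbers to pair the pools. Whether they do was not tested and cannot be told from the labels. The replicate block gave 3831 probe sets. Direction turned for SPP1 (0.18) to -0.67 with the score, -0.17 without CDd7 pool 2 or CDd14 pool 2 and -0.66 without CDd14 pool 3 (1.39 without CDd14 pool 1), for OXTR (0.12) to -0.21 without CDd7 pool 1 (0.43 without CDd7 pool 3, and 0.52 with the score), and with averaged probe sets for CDH1 to -0.02 and PSMD6 to 0.09. Probe set counts have no value under averaging, nor has the difference of day effects with the 6 CD arrays alone.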

Other observations

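Carriers of the SLC family, taken by the start of their symbol after values were seen, numbered 101 measured genes, of which 20 rose (19.8%) and 22 fell (21.8%), beside 9.87% and 14.2% over all genes, with a median difference of -0.06 log2 units. The large changes already given, upward in SLC39A2, SLC5A1 and SLC52A3 and downward in SLC39A8 and SLC6A20, belong to this family. The mitochondrial carriers among them (SLC25) rose in 4 of 21 and fell in 5.

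Importers of proteins into mitochondria (TIMM and TOMM) fell in 5 of 18 and none rose, with a median of -0.40 and 14 members lower in CDd14, against a median of -0.19 in NP. Mitochondrial ribosomal proteins (MRPL and MRPS) rose in 3 of 66 and fell in 8 (12.1%, near the 14.2% of all genes), with a median of -0.10. Zinc finger genes (ZNF) rose in 5 of 70 and fell in 3, and initiation factors of translation (EIF) rose in 2 of 39 and fell in 3. Complement genes passed in 0 of 15, and antigen presentation rose in 1 of 21 with none falling.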
